A study of Mus musculus with 2 samples.

Results

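Processed pseudogenes that held reads in mouse hippocampus were taken as the genes annotated as processed pseudogenes with an expected count of at least 20 in each of 2 libraries. The expected count is an estimate of the reads that came from a gene. There were 374 such pseudogenes among 9940 annotated processed pseudogenes, and among 55450 annotated genes in all. The pseudogenes were thus selected on these same counts, so the levels below are a description and were not tested. The mice were male 5xFAD/CAST animals of 8 to 10 months, and the labels name the tissue as layer of hippocampus. In 5xFAD mice a Thy1 promoter drives human APP that holds familial Alzheimer mutations, and both libraries came from the same group. The labels call the libraries biological replicates 1 and 2 but give both the same donor identifier, so the spread between them may be technical. Each library was made from 300 ng of total RNA with a directional kit, per the labels.

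A processed pseudogene arises when a messenger RNA is copied into DNA by the enzymes of a LINE-1 element and inserted elsewhere in the genome. The copy has no introns and usually no promoter of its own, and it collects mutations with time. Young copies therefore still read almost like the messenger RNA of the parent gene, while old copies have drifted away from it. Genes active in the germ line, such as those of ribosomal proteins and of glycolysis, have left many copies.

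The following stretches of 101 bases show the range of likeness between these pseudogenes and their parents. Each lies in the coding part of the parent gene, has the most differences of any such stretch without a gap, and is written 5′ to 3′ on the strand of the gene, with bases that differ between copy and parent in capitals. Coordinates are of the mm10 assembly. Gm10123 (chr9:96895658-96895758, plus strand) is a copy of Ppia, which encodes the peptidyl-prolyl isomerase cyclophilin A, and had 0 differences from it over all 490 bases, so that 1 line stands for both.
Gm10123 and Ppia: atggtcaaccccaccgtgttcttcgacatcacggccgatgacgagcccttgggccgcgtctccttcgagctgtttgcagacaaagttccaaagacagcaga
Gm15459 (chr5:5783442-5783542, minus strand) is a copy of Hspa8, the constitutive Hsc70 chaperone, with 5 differences over 1941 aligned bases.
Gm15459: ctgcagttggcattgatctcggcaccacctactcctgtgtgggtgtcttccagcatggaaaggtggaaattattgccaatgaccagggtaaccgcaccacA
Hspa8: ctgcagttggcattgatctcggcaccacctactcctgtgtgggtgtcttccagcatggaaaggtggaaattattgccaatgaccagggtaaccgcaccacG
Rpl35a-ps2 (chr1:181242165-181242265, minus strand) is 1 of 5 letter-identical copies of Rpl35a, a protein of the large ribosomal subunit, with 1 difference over 333 bases.
Rpl35a-ps2: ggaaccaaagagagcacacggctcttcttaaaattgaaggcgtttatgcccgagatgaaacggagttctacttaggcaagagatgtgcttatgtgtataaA
Rpl35a: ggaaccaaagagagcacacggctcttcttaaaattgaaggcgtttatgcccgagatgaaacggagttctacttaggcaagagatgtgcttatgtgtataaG
Gm6548 (chr17:78850909-78851009, minus strand) is a copy of Eef1a1, which brings aminoacyl-tRNA to the ribosome, with 9 differences in the stretch shown.
Gm6548: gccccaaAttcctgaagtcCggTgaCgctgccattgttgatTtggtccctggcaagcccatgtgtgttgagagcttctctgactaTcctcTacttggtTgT
Eef1a1: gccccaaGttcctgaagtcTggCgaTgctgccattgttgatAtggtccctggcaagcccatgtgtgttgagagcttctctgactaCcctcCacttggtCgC
Gm17922 (chr14:93202575-93202675, minus strand) is an older copy, nearest to Npm1, which encodes the nucleolar protein nucleophosmin, with 14 differences in the stretch shown.
Gm17922: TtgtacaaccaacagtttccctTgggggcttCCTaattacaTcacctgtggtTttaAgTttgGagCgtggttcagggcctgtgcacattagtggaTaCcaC
Npm1: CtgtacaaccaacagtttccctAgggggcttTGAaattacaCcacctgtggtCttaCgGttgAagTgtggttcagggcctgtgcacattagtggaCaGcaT

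Total expected counts were 26128897 in replicate 1 and 28689423 in replicate 2. The tissue check gave neuronal, hippocampal, astrocyte, oligodendrocyte and microglial markers in both libraries, among them Snap25 at TPM 808 and 920 and Prox1 at TPM 25.9 and 31.2 (a level scaled for length and depth). All 3 choroid plexus markers and both striatal markers were higher in replicate 1: the choroid plexus gene Ttr was at TPM 1151 against 174, and the striatal gene Ppp1r1b at TPM 68.4 against 24.9. The part of this difference in the results below was not tested.

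Most annotated processed pseudogenes held no reads: 7454 of 9940 had an expected count of 0 in both libraries. The 374 pseudogenes held 90391 counts in replicate 1 and 100041 in replicate 2, which was 91.1% and 91.4% of all counts of the class. These sums were 0.348% and 0.350% of the library. The 10 highest held 29.1% of the members' counts in each library. The median count per pseudogene was 91.1 ± 5.47 (SD, n = 2), and the median TPM was 8.09 in replicate 1 and 8.57 in replicate 2. Just inside the minimum lay Gm13688 with counts of 20 and 20, Gm5353 with 20 and 23, and Gm12929 with 20.7 and 32.9. Just outside lay Dynlt1-ps1 with 19.6 and 35.1, Gm11223 with 19.5 and 29.1, and AC125059.1 with 37 and 19.3.

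A parent gene was assigned to 371 of the 374 pseudogenes as the best sequence match to protein-coding transcripts over at least 50% of the copy. They came from 293 parents, of which 241 had 1 copy in the set, and 78 symbols also named a parent, 67 of them the same gene as the sequence did. The median identity to the parent was 99.2% over these 371 and 89.0% over the 8576 of 9566 processed pseudogenes outside the set that had a match. In 55 pseudogenes the whole sequence was contained letter for letter in a transcript of the parent, and 9 were identical to another processed pseudogene. RefSeq held 308 of the symbols, with 282 classed as pseudogenes, 18 as transcribed pseudogenes and 8 as protein-coding genes. Nearly all, 362 of 374, were annotated with a single exon. On the X chromosome lay 25 (6.68%), beside 900 (9.41%) of the 9566 processed pseudogenes outside the set.

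Copies of cytosolic ribosomal protein genes were the largest family, with 89 pseudogenes from 52 parents. They held 34155 counts in replicate 1 and 36393 in replicate 2, or 37.8% and 36.4% of the counts of the set. These 89 were 3.89% of the 2288 copies of such genes in the annotation. That share was close to the 374 of 9940 over all processed pseudogenes. It was 11.2% of 107 copies for actin and tubulin and 1.12% of 268 for HMG proteins. The largest ribosomal protein copy was Rpl3-ps1 on X, with counts of 3441 and 3635, followed by Rps2-ps13 on X with 2856 and 3104. Scaled for length, Rps23-ps1 had the highest mean level of all 374, at TPM 418 and 406, with counts of 2463 and 2557, though in replicate 2 the Ppia copy Gm10123 was higher. Rps23-ps1 is identical to Rps23, a protein of the small subunit's decoding centre, which itself was assigned 1024 and 1070 counts.

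The chaperone family had 8 pseudogenes with a summed count of 10366 ± 807 (SD, n = 2), and Gm15459 alone gave most of it. Gm15459 held 6376 and 6722 counts, the most of any member, at TPM 191 and 188. Its parent Hspa8 held 22013 counts in replicate 1 and 24971 in replicate 2. Gm15459 lay inside an annotated gene of the opposite strand. The second of the family was Gm10123, the Ppia copy shown above, with 2493 and 3092 counts at TPM 352 and 409. An Hspa8 copy with more differences, Gm8355, held 364 and 505.

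Copies of cytoskeletal genes for actin and tubulin numbered 12 and held 6528 ± 722 counts (SD, n = 2). Both highest were copies of the alpha-tubulin gene Tuba1b: Gm14150 with 2320 and 2609 counts and Gm3226 with 1464 and 1763. The 12 copies of glycolytic genes held 3793 ± 461 counts (SD, n = 2), led by the Eno1b copy Gm4735 with 1528 and 1873. Of the 4 Gapdh copies, Gm13394 held the most, with 453 and 775. In both of these families the raw sum was larger in replicate 2.

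The 11 copies of translation factor genes held 3168 ± 113 counts (SD, n = 2), with Gm6548 at 700 and 722 and the Eef2 copy Gm13050 at 472 and 517. The 8 copies of respiratory chain genes held 2695 ± 218, with Ndufb4c, a copy of a complex I subunit gene, at 506 and 579 and Gm12338, a copy of the cytochrome oxidase gene Cox7c, at 609 and 642. Pseudogenes of splicing and RNA-binding genes numbered 13 and held 2315 ± 303 counts, with Pabpc1l2b-ps at 566 and 686 and the Hnrnpa1 copy Gm10052 at 575 and 533. Smaller sums came from 11 copies of ubiquitin and proteasome genes, with 1517 ± 122, among them Ube2n-ps1 and the Ube2v2 copy Gm6361. The 3 HMG copies held 979 ± 174, led by the Hmgb1 copies Gm15387 and Gm21596. The 5 copies of nuclear acidic protein genes held 786 ± 78.7, led by Gm4204 (Nap1l1) and Gm14681 (Npm1), and the 3 histone copies 377 ± 78.3, led by Gm8203 and Hist1h2al. No calmodulin copy reached the minimum, and 195 pseudogenes belonged to no family of the list. Among the latter were Vcp-rs with 1909 and 2098 counts, the Ap2m1 copy Gm13509 with 1413 and 1694, and Morf4l1-ps1 with 1369 and 1439.

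**Figure D1:**
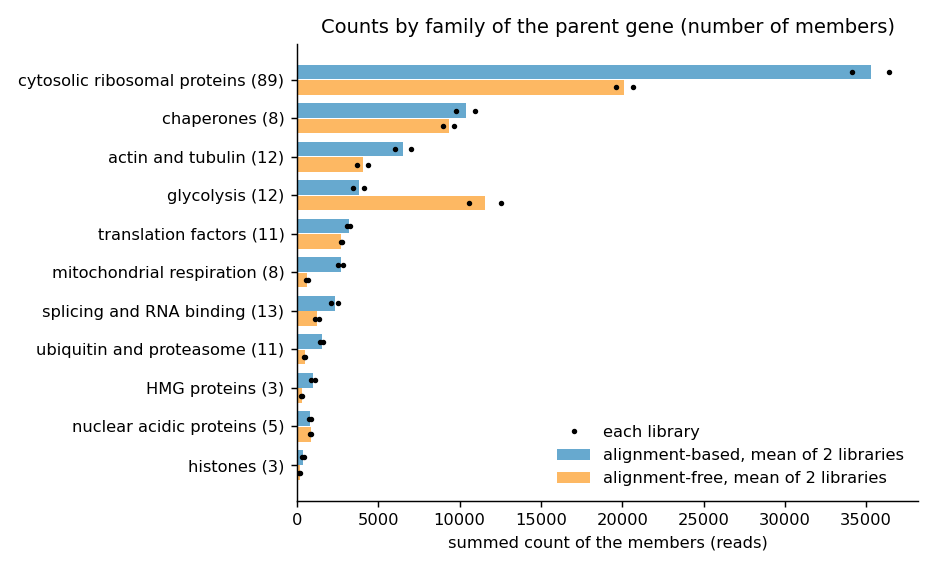
Summed counts of the pseudogenes by family of the parent gene, for families with at least 3 members, on a linear axis from 0. Bars are means of the 2 libraries and dots the libraries, for the alignment-based and the alignment-free count; ribosomal protein copies were the largest sum by either, and glycolytic copies were the family with a much larger alignment-free sum.

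For the typical pseudogene the parent was assigned far more reads. The pseudogene's median share of the reads assigned to it and its parent together was 6.45%, over 371 pairs. In 17 pairs the pseudogene had the higher mean count, a statement on assigned reads and not on level per length. Among these were Rps2-ps13, Rps23-ps1 and Ndufb4c, and also Gm7536, with 1263 and 1528 against 1217 and 1303 for Rpl27a, and Rpl28-ps1, with 1255 and 1381 against 1230 and 1284 for Rpl28. Also among the 17 was AA414768 on X, with 95 and 88 counts. Its nearest coding gene, E330021D16Rik, was listed at 0 in both libraries by the alignment-based estimate and at 18 and 18 by the alignment-free one.

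**Figure D2:**
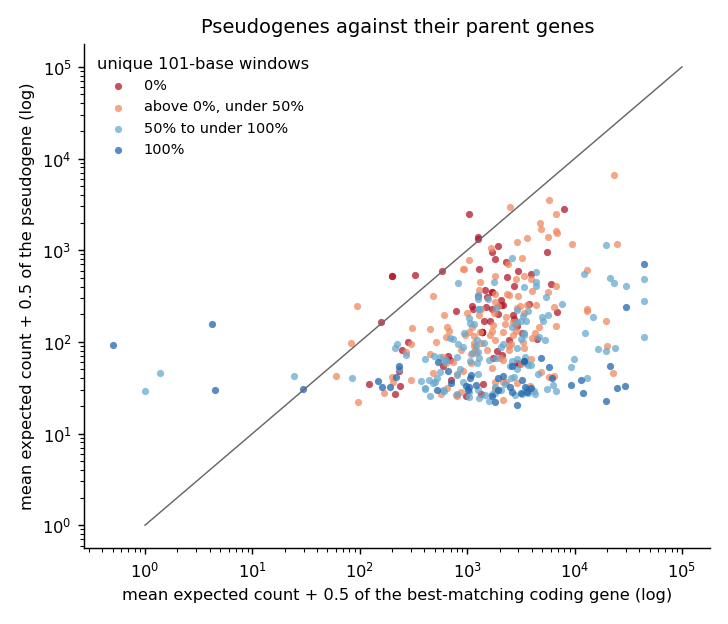
Mean expected count (plus 0.5) of each pseudogene against that of its parent gene, both on log axes, for 371 pairs coloured by the share of unique 101-base windows. The line marks equal counts, and 17 pseudogenes lie above it by mean count.

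A read can be told apart from those of other genes only where the sequence of the pseudogene differs from all other transcripts. The share of 101-base windows found, in the sense direction, in no transcript of any other gene was therefore computed for each pseudogene. It was 0% in 67 of the 374, above 0% and under 50% in 129, from 50% to under 100% in 128, and 100% in 50. Outside the set 71.4% of processed pseudogenes had every window unique and 2.54% had none. The median identity to the parent in the 4 groups was 100%, 99.6%, 98.2% and 83.6%, and the rank correlation between unique share and identity was -0.92 over 371 pseudogenes. The most heavily counted pseudogenes were thus not the most distinct ones, and the median mean count went from 209 in the group with no unique window to 33.3 in the group with all windows unique.

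A whole-number expected count is what reads placed on 1 entry give, while a fractional count shows that some reads were split between entries. Counts were whole in both libraries, to within 0.005, in 43 of 374 pseudogenes, or 11.5%. Among all 16493 genes with at least 20 counts in both libraries the share was 83.5%. It was 85.1% among 13910 protein-coding genes, 37.0% among 54 transcribed processed pseudogenes and 2.56% among 39 unprocessed pseudogenes. Of the 43 whole counts, 40 belonged to the group of 50 with every window unique, 2 to the group from 50% and 1 to the group under 50%. That single one was Pabpc1l2b-ps on X, nearest to the poly(A)-binding protein gene Pabpc4 at 77.4% identity, and the highest whole count of all. The 43 pseudogenes with whole counts had a median mean count of 33.5, against 109.7 for the other 331.

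The authors' coefficient of quartile variation of TPM is the spread of the middle part of the estimate's distribution relative to its centre, so a larger value is a less certain estimate. Its median was 0.104 ± 0.004 (SD, n = 2) for the 374 pseudogenes and 0.0420 ± 0.0013 for protein-coding genes with at least 20 counts. Pseudogenes had lower counts, and the coefficient falls with the count: the rank correlation with the mean count was -0.65 over the 374. Within a mean count of 50 to 200 the medians were 0.0991 ± 0.0039 for 151 pseudogenes and 0.0832 ± 0.0005 for 2407 protein-coding genes. In this band the pseudogenes' median was above that of the coding genes. It was close to the medians of other pseudogene classes in the band. These were 0.0937 ± 0.0014 for 15 transcribed processed pseudogenes and 0.0974 ± 0.0039 for 18 unprocessed pseudogenes. The ± values give the spread between libraries and not between genes, counts within the band were not matched, and the differences were not tested.

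The least certain estimates were those of letter-identical copies. The 5 pseudogenes of Rpl35a, on chromosomes 1, 2, 5, 6 and 17, each held 139.02 counts in replicate 1 and 115.07 in replicate 2, with mean coefficients from 0.56 to 0.68. They are Gm10243, Rpl35a-ps2, Rpl35a-ps3, Rpl35a-ps4 and Rpl35a-ps6, and all 333 bases are the same in each, so they are 1 sequence and not 5 independent values. The alignment-free counts of the 5 were likewise equal, at 62.6 and 41.1 each. Of the 374 pseudogenes 47 had a mean coefficient of at least 0.2, and 22 of these had no unique window. The lowest coefficients at counts of at least 100 belonged to Gm15459 and Rps23-ps1, both at 0.015 in each library, Rps2-ps13, Gm14150 and Gm7536. Rps23-ps1 and Gm7536 had no unique window either, so a low coefficient was not limited to distinct sequences.

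**Figure D3:**
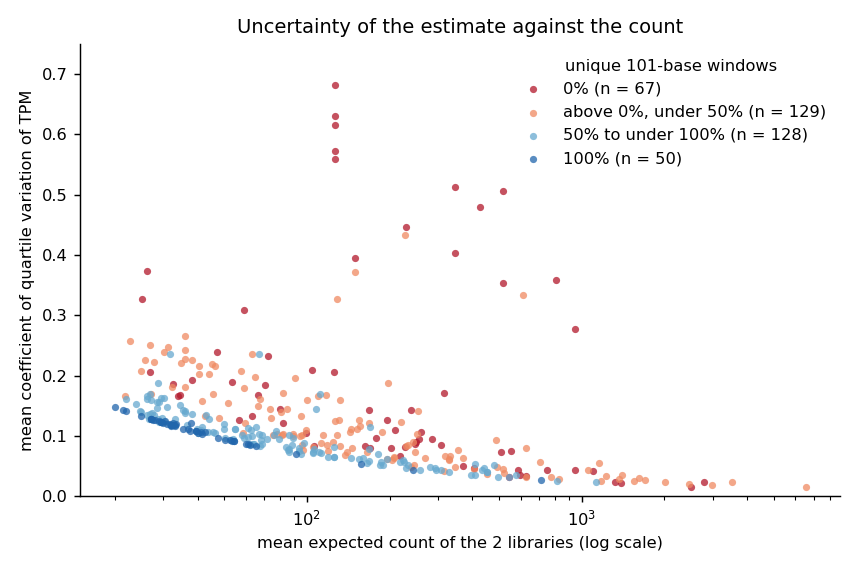
Mean coefficient of quartile variation of TPM against mean expected count on a log axis, 1 point per pseudogene (n = 374), coloured by the share of unique 101-base windows. At a given count the pseudogenes with 100% unique windows lie near the lower edge, the lowest coefficients of all stand at high counts with few unique windows, and the 5 identical Rpl35a copies stand at 0.56 to 0.68.

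The second quantification of the same reads, made without an alignment, gave many of these pseudogenes fewer counts. The median log2 ratio of alignment-free to alignment-based count, with 0.5 added to each, was -0.52 ± 0.01 (SD, n = 2), while the median of all 16493 genes was 0.20. The alignment-free count was under 1 in both libraries for 69 of the 374 pseudogenes, or 18.4%, against 0.831% of all genes. It was more than 2-fold below the alignment-based count in both libraries for 146 pseudogenes, beside a background of 1.67%, and over 2 times it in both for 4, beside 1.59%. Low counts were not limited to the set. Of the 54 transcribed processed and 39 unprocessed pseudogenes with at least 20 counts, 7 (13.0%) and 5 (12.8%) had an alignment-free count under 1 in both libraries. In these classes 12 and 8 were more than 2-fold below in both, while the median log2 ratios were -0.01 and 0.03. The minimum of 20 was on the alignment-based count, for the set and the background alike. Genes high only by the alignment-free count therefore could not enter. The sums of the set were 67671 and 74307 alignment-free counts, or 30.6% and 46.2% of the alignment-free counts of the class.

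The log2 ratio was lowest in the pseudogenes with few unique windows. Its median was -4.42 ± 1.96 (SD, n = 2) on the log2 scale in the 67 pseudogenes with no unique window and -1.0 ± 0.17 in the 129 under 50%. It was -0.25 ± 0.04 in the 128 from 50% and 0.09 ± 0.02 in the 50 with every window unique. An alignment-free count under 1 in both libraries was found in 30, 31, 6 and 2 pseudogenes of these groups. The rank correlation of the unique share with the log2 ratio was 0.45 over 374 pseudogenes, and that of length with the log2 ratio was 0.49, so shorter copies also had the lower ratios. When each pseudogene was added to its parent, the median log2 ratio of the 371 sums was 0.16 ± 0.003, beside 0.20 for all genes. It was 0.17 for the 67 pairs with no unique window. The parents alone were at 0.20 ± 0.004 over the 371 pairs. They were at 0.32 ± 0.01 in the 67 pairs with no unique window and 0.16 ± 0.002 in the pairs with every window unique. The pseudogene's median share of a pair was 6.45%, so the sums mostly follow the parent. The 371 pairs share 293 parents, so some parents entered more than once.

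**Figure D4:**
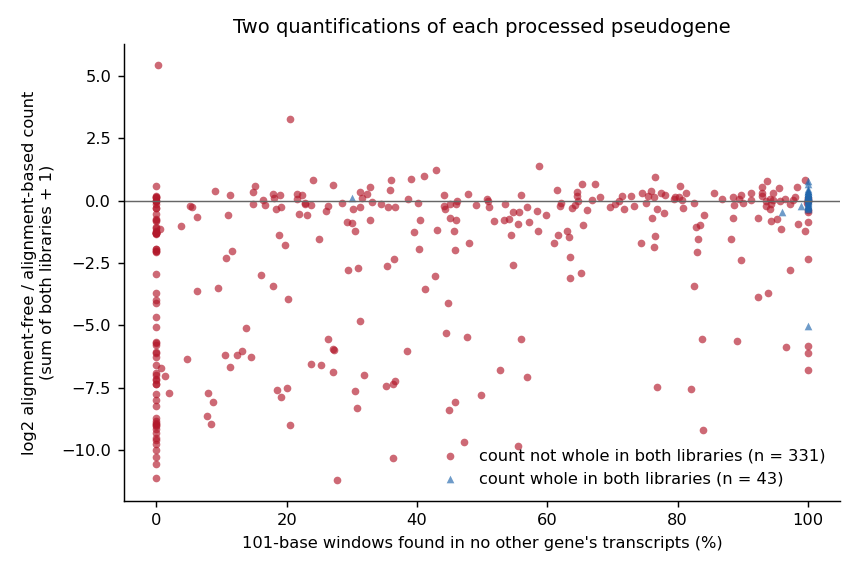
The log2 ratio of alignment-free to alignment-based count, from the sum of both libraries plus 1, against the share of unique 101-base windows, 1 point per pseudogene. Of the 43 pseudogenes with whole counts (triangles), 40 stand at 100% and nearly all lie near 0, the low one being Selenok-ps6 with counts of 43 and 22 against 1 and 0 alignment-free, while the ratio spreads down to below -10 among the others.

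Single loci show how far apart the estimates were. Gm10123, identical to Ppia, went from 2493 and 3092 alignment-based counts to 0 and 107 alignment-free counts, while Ppia went from 7578 and 8501 to 10729 and 12359. By counting error alone a listed 0 allows up to 3 counts, but this does not bound shared reads that were given to another entry. An alignment-free count of 0 in both libraries was listed for 65 pseudogenes. The 5 with the most alignment-based reads among these were Atp6v0c-ps2 with 1058 and 1287 alignment-based counts, Rpl31-ps8 with 1072 and 1126, Gm10095 with 585 and 674, Gm12338 with 609 and 642, and Rps16-ps2 with 501 and 515. Their parents make a proton pump subunit (Atp6v0c), ribosomal proteins (Rpl31, Rps16) and a cytochrome oxidase subunit (Cox7c), apart from BC004004, the parent of Gm10095. By contrast Gm15459 had 7697 and 8116 alignment-free counts, and Gm6548 had 701 and 727, within 1% of its alignment-based count in each library.

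The opposite case was rarer within the set, which was chosen on alignment-based counts. Outside it, 153 processed pseudogenes had at least 20 alignment-free counts in both libraries. Of these, 123 had fewer than 10 alignment-based counts in both. Gm7336, a copy of the glycolytic gene Gapdh with 99.8% identity, had 250 and 188 alignment-based but 8709 and 10371 alignment-free counts. Gapdh itself went from 12069 and 14008 to 21799 and 25302, so here the parent's count was also higher. Gm7336 alone carried most of the alignment-free sum of the glycolytic copies, which was 11573 against 3793 alignment-based counts. Oaz1-ps, a copy of the gene for ornithine decarboxylase antizyme, had 110 and 152 alignment-based against 1196 and 1311 alignment-free counts, while Oaz1 went from 2756 and 2943 down to 1763 and 1879. The other 2 over 2 times in both libraries were Gm8355, with 982 and 1271 alignment-free counts, and Gm8741, a copy of Snu13, with 122 and 156 against 46.3 and 71.2. Gm9517 and Gm15920 had the next highest ratios of counts summed over both libraries among pseudogenes of at least 100 counts, with 282 and 252 against 133 and 156, and 292 and 290 against 154 and 138.

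Position in the genome differed between the pseudogenes with whole counts and the rest. Position was no criterion of the choice, but the choice required a minimum count. Reads from the intron of a surrounding gene could add to that count. The comparison with pseudogenes outside the set may therefore not be independent of the choice, and this was not tested. Of the 43, 31 (72.1%) lay wholly inside an annotated gene of the same strand, and none of these 31 overlapped an exon of it. Among the 331 with fractional counts 49 (14.8%) lay inside a same-strand gene, and among the 9566 processed pseudogenes outside the set 952 (9.95%) did. On the opposite strand the numbers were 3 of 43 (6.98%), 55 of 331 (16.6%) and 1702 of 9566 (17.8%). Over the whole set 80 pseudogenes (21.4%) lay inside a same-strand gene and 58 (15.5%) inside a gene of the opposite strand.

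**Figure D5:**
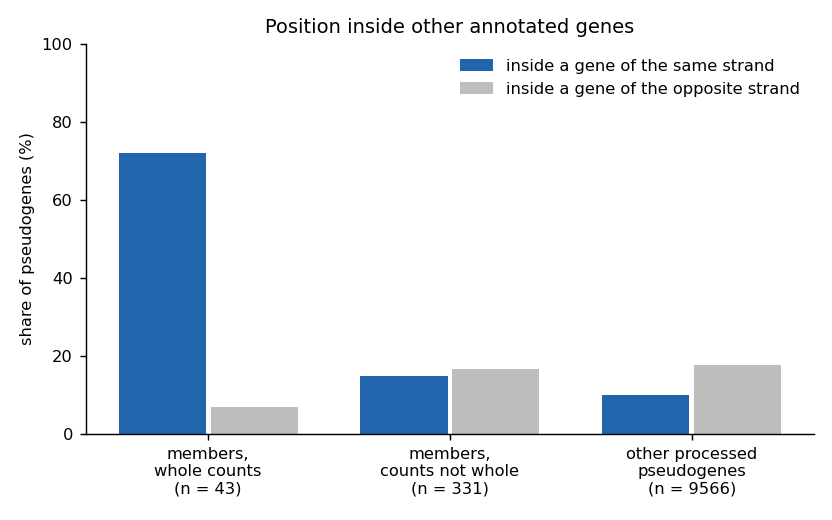
Share of pseudogenes (%) that lie wholly inside another annotated gene, by strand, for the 43 with whole counts, the 331 with counts not whole in both libraries, and the 9566 processed pseudogenes outside the set. The same-strand bar is 72.1% in the first group, 14.8% in the second and 9.95% in the third.

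The genes that held these 31 pseudogenes in their introns were 30 in number and all reached TPM 1 in both libraries. Their median TPM was 33.26 in replicate 1 and 35.97 in replicate 2, against 19.6 and 20.9 around the 46 pseudogenes with fractional counts in such a position, and 1.93 and 1.98 for the same-strand genes around pseudogenes outside the set. The minimum count may also have favoured pseudogenes within highly expressed hosts, which was not tested. The hosts described here were picked after their values were seen. Gm17922, whose sequence is shown above, held 43 and 40 counts and lay within Pcdh9, a protocadherin gene at TPM 78.7 and 74.4. Gm13689 held 63 and 57 and lay within Nckap1, an actin regulator of the WAVE complex at TPM 183 and 214. Zbtb20, a transcription factor gene of hippocampal pyramidal neurons at TPM 109 and 121, held both Gm15712, with 48 and 57 counts, and Gm15711, with 32 and 47.

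Another host was Cadm2, a synaptic adhesion gene around Gm15828 (36 and 28 counts). Stxbp5l, a regulator of vesicle release, surrounded Gm15665 (46 and 55), and Cacna1c, the L-type calcium channel, surrounded Gm18981 (27 and 32). Fth-ps2, a copy of the ferritin heavy chain gene, lay within the kinase gene Braf and held 29 and 33 counts. All these counts were between 27 and 63, and the alignment-free counts of the same pseudogenes were for example 46 and 50 for Gm13689 and 51 and 63 for Gm15712. Whether these reads came from the introns of the host or from a transcript of the pseudogene cannot be told apart in these tables.

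The libraries were compared with a two-sided exact conditional binomial test on counts rounded to whole reads, with p-values adjusted by Benjamini-Hochberg over 16493 genes, which weighs counting error only. It called 66 of the 374 pseudogenes (17.6%), beside a background of 18.5% of all genes, so the set stood near the background. Of these 27 were higher in replicate 1 (background 8.6%) and 39 in replicate 2 (background 9.89%), and 102 had an unadjusted p under 0.05 (background 29.4%). The median log2 ratio of replicate 2 over replicate 1, after TMM scaling, was 0.01, while the median size of the ratio regardless of sign was 0.22 for the set and 0.12 for all genes. More than a 2-fold difference was found in 13 pseudogenes (3.48%), beside 1.1% of all genes. Counting error gives wider ratios at lower counts, and the median mean count was 92.4 for the set and 450 for all genes. By unique windows, 25 of 67 with none were called, 30 of 129 under 50%, 8 of 128 from 50% and 3 of 50 with all. The test calls more readily at higher counts, and the median mean counts of these 4 groups were 209, 131, 68.2 and 33.3. No comparison at matched counts was made here.

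For some copies the count in the libraries differed several-fold. Gm7816, a copy of the co-chaperone gene Dnaja1, held 169 and 50.6 counts, 3.61-fold higher in replicate 1 (exact binomial test, adjusted p = 1.3e-16), while Dnaja1 held 3701 and 4263. Rps18-ps3 held 195 and 63.1 counts, and Rpl15-ps3 held 219 and 79.7. Gm5578, with 99.9 and 61.9, and Gm15772, with 204 and 134, were also higher in replicate 1 at the adjusted threshold. In the other direction the Hnrnpa3 copy Gm11847 held 67.4 and 231 counts, 3.13-fold higher in replicate 2 (exact binomial test, adjusted p = 1.4e-17), while Hnrnpa3 held 6296 and 7060. Gm11826 held 62.5 and 152, Gm2541 held 39.3 and 93.8, AC123659.1 held 38.6 and 90.3, and Gm14303 held 162 and 359, each called higher in replicate 2. Of these 10 pseudogenes, 6 had fewer than 1 alignment-free count in at least 1 library, among them Gm7816 with 0 in both. The test treats a fractional estimate as if it were counted reads, so its p-values are too small for pseudogenes whose reads were split.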

How the data were processed

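Total RNA-seq of 2 libraries of 1 group was used. Per the deposited notes, the tables rest on mm10, an assembly of the C57BL/6J strain and not of CAST, and GENCODE M21. Names of the aligner and quantifiers were not given in the sources used here. Expected counts, as the authors deposited them, estimate the reads of a gene and can be fractional. TPM, as deposited, adds the authors' scaling to gene length and library size. The coefficient of quartile variation was deposited as a fraction of the TPM estimate, per the file headers. The alignment-free estimated counts were deposited per transcript and summed per gene here; 86 annotated genes had no entry there and were left out.

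The members, families and lists were chosen with earlier results of these data known. A class was taken where all transcripts of a gene carried it. Parents were the best BLASTN match (version 2.17.0, word size 16, e-value of at most 1e-20) covering at least 50% of the member; families followed the parent's symbol. Windows of 101 bases (the difference between deposited length and effective length, plus 1), and of 31 as an alternative, were compared with transcripts of all other genes. Expected counts were rounded for TMM scaling in edgeR (version 4.0.16, R version 4.3.3) and for the exact conditional binomial test between libraries; log2 ratios used a pseudocount of 0.5. The test was checked on simulated counts. Python (3.11.15) with numpy (2.4.6), pandas (2.3.3), scipy (1.17.1) and matplotlib (3.10.9) did the rest. Totals of alignment-free counts were 29554433 and 32341517. A count of 0 allows up to 3 counts, which covers counting error only and not how shared reads were divided between entries.

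Named members were the 15 with the highest mean count; the 5 with the lowest and highest coefficient, and the 5 with the lowest and highest alignment-free ratio, at a mean count of at least 100; the 5 per direction with the largest ratio between libraries at a mean count of at least 50; the 3 on each side of the minimum; and the 2 highest of each family of at least 3. AA414768, Gm8741 and the pseudogenes in introns were named after their values were seen, and some members that the rule took are not described. Some items are not reported here. Alternatives covered count minimums, TPM and posterior mean counts, DESeq2 (version 1.42.0) size factors, pseudocounts, the alignment-free table, tolerances, windows and leaving out each replicate.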

Additional observations from a re-analysis of the deposited data

How the results depend on the processing

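Of 48 recomputed values, 31 stayed within the set limits and 17 moved, 1 of them with a change of sign. The limits were wide for numbers of genes: 538 pseudogenes chosen by a TPM of at least 1, beside 374, counted as within them. The number of pseudogenes was 570 with a minimum of 10 counts and 241 with a minimum of 50, and with 1 library at a time 436 to 444. Their share of the class counts was 38.4% with alignment-free counts and 92.9% to 93.5% with 1 library at a time. With the minimum of 50, whole counts were left in 7 pseudogenes, the median coefficient of quartile variation was 0.0817, and the median log2 ratio of alignment-free to alignment-based count was -0.75. The coefficient was 0.113 to 0.118 with 1 library at a time. The log2 ratio was -0.48 with a pseudocount of 5, -0.70 with each table scaled to its own total, and -0.65 to -0.47 with 1 library at a time. With 31-base windows 11 pseudogenes had every window unique. An alignment-free count under 1 was found in 90 to 104 pseudogenes chosen with 1 library at a time. The median log2 ratio of replicate 2 over replicate 1 turned from 0.01 to -0.11 with alignment-free counts. The causes were not tested, apart from the larger or smaller sets of pseudogenes that another minimum or 1 library gives. With 1 library at a time, whole-count pseudogenes numbered 57 to 64, those inside a same-strand gene 97 to 105, the whole-count ones among them 41 to 46, those with every 101-base window unique 61 to 69, and ribosomal protein copies 99 to 99. The alternatives for the window, the alignment-free count under 1, whole counts by position and ribosomal parents were chosen after seeing the data. Values that compare the libraries need both, so neither could be left out there. No paired analysis was possible because there is 1 group only.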

Other observations

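Processed pseudogenes outside the set also held alignment-free counts: 153 of them had at least 20 in both libraries, and 123 of these had fewer than 10 alignment-based counts in both. Gm19220 on chromosome 12 had 107892 and 42639 alignment-free counts and was at 0 alignment-based counts in both libraries, although all of its 101-base windows are unique among transcripts. Gm19220 made up 48.8% of the class's alignment-free counts in replicate 1 and 26.5% in replicate 2. Without Gm19220, the 374 pseudogenes held 59.9% and 62.9% of the class's alignment-free counts. A further 53 of the 153 had the vomeronasal receptor gene Vmn2r79 as their nearest coding match, with summed alignment-free counts of 23207 and 22205 against 116 and 115 alignment-based counts. Gm47626, for example, had 1518 and 1736 alignment-free against 7 and 5 alignment-based counts.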
